A study of Caenorhabditis elegans with 2 samples.

Results

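The gene grh-1 (WBGene00001707) lies on the minus strand of C. elegans chromosome I, from 1268155 at its annotated start down to 1258201 on build ce11. The gene was selected on the signal and position of its BLMP-1 peaks in these same lists, so these are described here and not tested. Its regions are all lines of 4 deposited peak lists whose summit lies in the gene body or within 8000 bp upstream. There are 36 such lines. The pooled list gives 12 of its 30000 candidate regions, replicate 1 gives 11 and replicate 2 gives 11 of 30000 each, and the authors' list of peaks that passed IDR (irreproducible discovery rate, a measure of agreement between replicates) gives 2 of 843. The data come from ChIP-seq of eGFP-tagged BLMP-1 in whole mixed-stage embryos, male and female pooled, in 1 group of 2 biological replicates from separate biosamples, and the labels give the antibody as blmp-1. The strain, OP109, carries the tagged blmp-1 as an integrated transgene, wgIs109, in an unc-119(ed3) background, so both libraries hold the same transgene, and no untagged group or second condition was analysed here. A whole embryo mixes all tissues, so these data do not say in which cells a region was occupied. The lists give no read counts and the depth of each library is unknown. Strength is the authors' signal value, whose scale the files do not state. Values are therefore set against each other only within a list, except where the factor between the 2 replicates is given beside its quartiles. Ranks are given with 1 as the strongest.

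Grainyhead factors are DNA-binding proteins of epithelia. In flies and vertebrates they drive genes that seal and repair the epidermal barrier and hold cell junctions together. In C. elegans, GRH-1 accumulates in a rhythm with the molting cycle of the larva and is needed for normal shedding and renewal of the cuticle. BLMP-1, the worm homologue of vertebrate PRDM1 (Blimp-1), is a zinc finger transcription factor that is itself prominent in the epidermis and in the timing of larval development. Both are thus known as regulators of the same tissue, and the lists show where tagged BLMP-1 was recovered around the gene for GRH-1.

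Both IDR peaks at grh-1 hold 2 sequence words within 50 bp of the summit. One is AAGTGAAA, the core recognised by BLMP-1 and PRDM1, and the other is the short repeat GAGAGA. Each was searched on both strands. Of all 843 IDR summits, 31 hold both words, which is 3.68%, against 0.141% of the 29092 pooled candidates apart from all IDR peaks. The sequence at grh-1 itself is not shown here. To let the combination be seen, the 3 strongest IDR summits with both words on the other nuclear chromosomes are given as 101 bases centred on the summit, plus strand of the RefSeq ce11 (WBcel235) genome, with the core and every GAGAGA match in capitals. In all 3 the core reads TTTCACTT because it lies on the minus strand, and a GAGAGA match on that strand reads TCTCTC.
Summit on III at 12800754: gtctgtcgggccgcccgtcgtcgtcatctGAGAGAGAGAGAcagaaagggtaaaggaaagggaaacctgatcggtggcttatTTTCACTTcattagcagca
Summit on V at 6000500: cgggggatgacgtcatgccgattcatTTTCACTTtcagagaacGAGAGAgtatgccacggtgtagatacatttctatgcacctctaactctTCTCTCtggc
Summit on X at 6515464: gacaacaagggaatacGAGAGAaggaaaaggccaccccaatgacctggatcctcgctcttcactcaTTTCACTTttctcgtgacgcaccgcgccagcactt
The first ranks 35 in the pooled list and lies 2185 bp upstream of agmo-1. The second ranks 55, 3101 bp upstream of fos-1, and the third ranks 82, outside any protein-coding gene. None of the 31 ranks above the distal peak of grh-1, which stands at 12.

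The distal peak was the stronger one at grh-1. It spans 1273812 to 1274084, with its summit at 1273939, 5784 bp upstream of the annotated start. Its signal value was 374 in the pooled list, 235 in replicate 1 and 129 in replicate 2, and it ranked 12, 19 and 15 in these lists. All 3 lists thus place it among their 20 strongest regions. The replicates put its summit 6 bp apart, where the median over the 809 IDR regions found in both replicates was 31 bp (quartiles 15 and 59). Of these 809, 12.1% had summits that close or closer. The region was 273 bp wide, narrower than the usual 316 bp of the pooled list.

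The proximal peak spans 1269004 to 1269319, with its summit at 1269162, 1007 bp upstream of the start. Its signal value was 80.8 in the pooled list, 53.0 in replicate 1 and 28.3 in replicate 2, and its ranks were 261, 265 and 412. It lay above the median IDR signal of 65.5. The replicates' summits were 51 bp apart, on either side of the pooled one. Of the 809 IDR regions found in both replicates, 69.5% had summits that close or closer.

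The distal region stood above the proximal one by nearly the same factor in each list. The signal value was 4.63 times higher in the pooled list, 4.44 times in replicate 1 and 4.57 times in replicate 2. Replicate 1's value exceeded replicate 2's by a factor of 1.82 at the distal and 1.87 at the proximal region, within the quartiles of this factor over the 809 IDR regions (1.15 to 2.29, median 1.61). With 2 libraries and no read counts these factors have no error of their own.

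**Figure D1:**
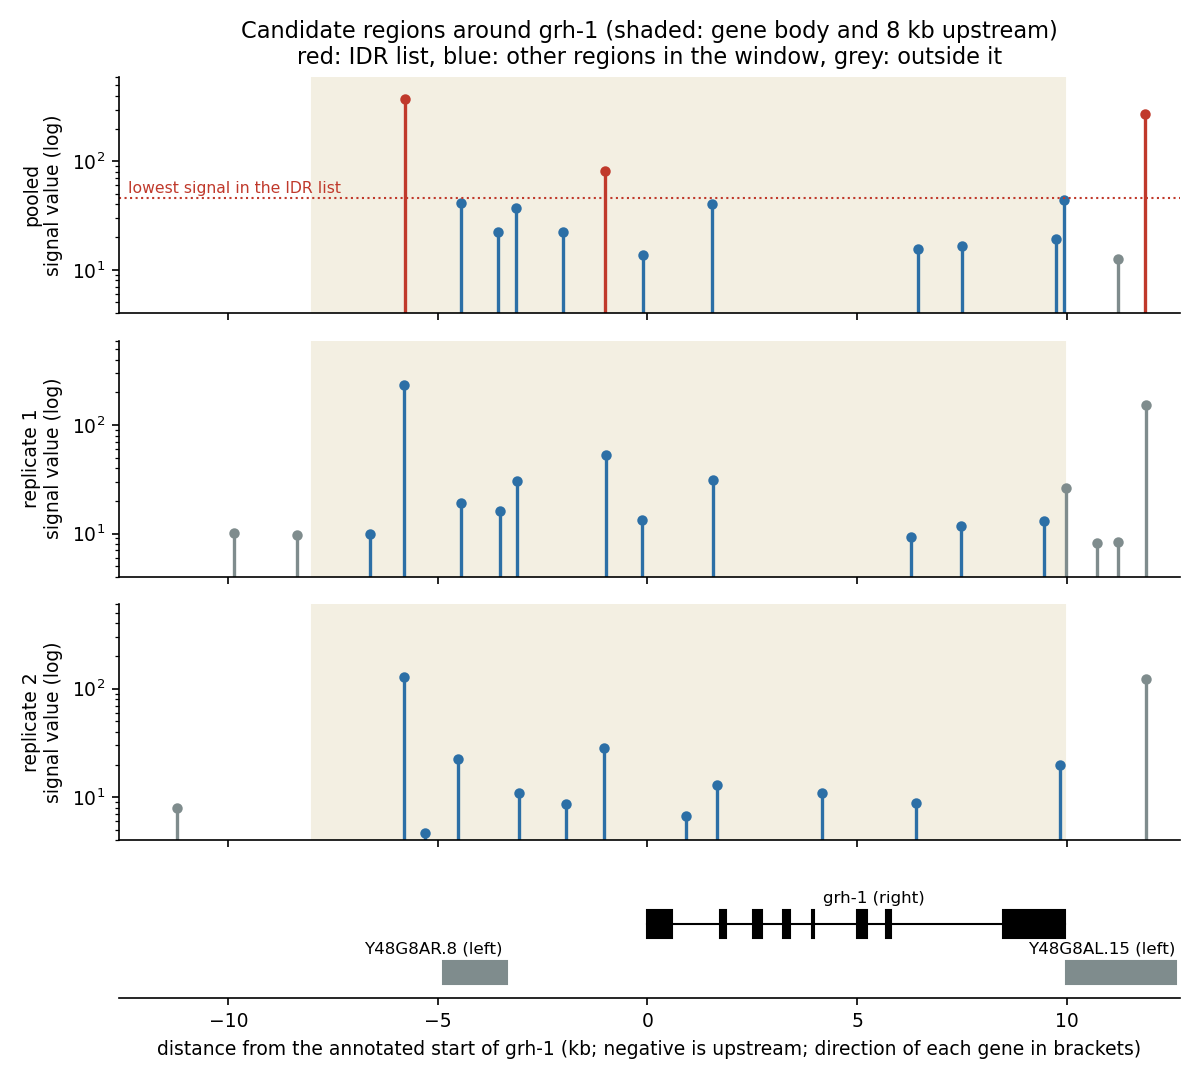
Signal value (log scale) of every candidate region from about 12 kb upstream to just past the 3′ end of grh-1, in the pooled list and in each replicate, plotted at the summit's distance from the annotated start, with gene models below. Inside the window the regions at 5784 and 1007 bp upstream rise above the lowest IDR signal of 46.1, and 4 further regions come close to it. The same 2 upstream regions lead the window in both replicates. Outside it, the IDR peak in an intron of Y48G8AL.15 stands above the proximal region in every list, at 274 pooled, 152 in replicate 1 and 123 in replicate 2.

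Neither IDR peak lies inside a gene. Between them stands Y48G8AR.8, a short protein-coding gene from 1271516 to 1273033 that is read on the opposite strand, away from grh-1. Its start is 3361 bp upstream of that of grh-1. The proximal summit is 2354 bp upstream of the start of Y48G8AR.8, so it lies between 2 divergent starts and nearer to that of grh-1. The distal summit lies 906 bp past the end of Y48G8AR.8 and 2423 bp from its start. Farther out the pooled list held nothing for 15441 bp, and the region found there was weak, with a signal of 13.8 and rank 21452. The next protein-coding gene, Y48G8AR.2, starts 8162 bp beyond the distal summit and is read away from it. Which gene a region acts on is not measured by these lists.

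Few genes had as many IDR summits in the body and upstream window as grh-1, though it was no extreme. Of the 19985 protein-coding genes, 8.38% had at least 1 IDR summit in the body or 8000 bp upstream, and 0.946% (189 genes) had 2 or more. Long windows hold more summits. Among the 707 genes whose window was within 10% of the 17955 bp of grh-1, 2.83% had 2 or more. The highest counts, 14 to 17, belonged to genes of the mitochondrial genome. Among nuclear genes let-60 and unc-4 led with 6 each, a pair picked after its values were seen. Counted over all candidates, grh-1 had 12 pooled summits, and 253 genes (1.27%, grh-1 included) had as many or more, against a median of 3 over all genes and 5 over the 707 of similar length.

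Beyond its IDR peaks, grh-1 had 4 regions just under the cut. In the pooled list 2.81% of regions are in the IDR list, and these are exactly the 843 of highest signal, down to a value of 46.1. The 4 regions had signal values of 43.7, 41.2, 40.6 and 37.4 and ranks of 939, 1060, 1080 and 1318. Each had a candidate in both replicates. The same held for 84.0% of the 843 regions next below the IDR list and for 96.0% of the IDR regions. All 4 were thus found in both libraries, as most regions of that strength were. Of the pooled candidates apart from all IDR peaks, 24.1% were. The replicates put the summits of the 4 regions 142, 68, 83 and 64 bp apart, in the order given. The upper quartile over the 809 IDR regions found in both replicates was 59 bp.

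The replicates ranked these 4 regions differently, except for the one at the 3′ end. The region in the first intron, 1535 bp inside the gene at 1266620, ranked 760 in replicate 1 and 3840 in replicate 2. The intergenic region 3126 bp upstream, at 1271281, ranked 805 and 6023. The region 4440 bp upstream, at 1272595 in an intron of Y48G8AR.8, ranked 3058 and 739, the reverse order. The region at the 3′ end, at 1258207, ranked 1174 and 1102. Of the 4, 2 would thus enter a list of 843 made from replicate 1 alone, another would enter one made from replicate 2 alone, and none would enter both. By that count grh-1 had 4 summits among replicate 1's 843 strongest and 3 among replicate 2's.

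**Figure D2:**
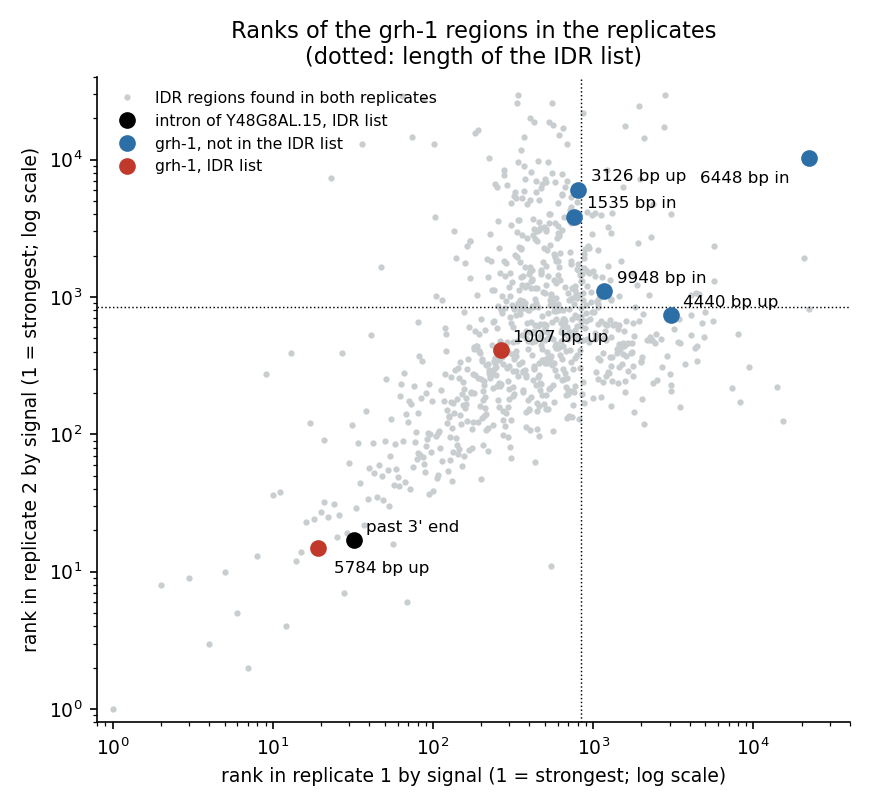
Rank in replicate 1 against rank in replicate 2, both on a log scale. Small grey points are the IDR regions found in both replicates, and large points are regions at grh-1, labelled by distance from the start. The region 9747 bp inside is left out because it was matched, by nearest summit, to the same replicate regions as the one at 9948 bp. The distal peak sits at ranks 19 and 15, near the point for the peak past the 3′ end, while of the 4 regions under the cut 3 have 1 rank on each side of the dotted lines at 843, and the one 9948 bp inside, at ranks 1174 and 1102, lies beyond both.

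The other 6 pooled regions in the window were weak, with signal values from 13.7 to 22.3 and ranks from 6070 to 21654. One of them lay 114 bp upstream of the annotated start, signal 13.7, and it had a candidate in replicate 1 (rank 9664) but none in replicate 2. The region nearest the annotated start thus had the lowest pooled signal of the 12. That start lies 1 base before the coding sequence. Many worm transcripts are trans-spliced close to the start codon, so annotated starts can differ from the sites where transcription begins. Of the 6, only the region at 1261707 in intron 7 and the one at 1258408 in the 3′ UTR overlapped candidates of both replicates. By nearest summit, the one at 1258408 was matched to the same replicate regions as its stronger neighbour at 1258207. It also overlapped a further region of replicate 1, with its summit at 1258686 (rank 10155). Of all 12 pooled regions, 8 had a candidate in both replicates, 3 in replicate 1 alone and 1 in replicate 2 alone.

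Each replicate also held lines that no pooled region matched. In replicate 1 this was 1 region, 6625 bp upstream (signal 9.89, rank 19790). In replicate 2 there were 3, at 5312 bp upstream (rank 29933), 909 bp inside the gene (rank 18077) and 4166 bp inside it (rank 6011). The last one lies at 1263989 over an exon of the transcript Y48G8AR.1b, 16 bp inside the start of the short transcript Y48G8AR.1c at 1264005. Replicate 1 had no candidate there, so a region at the start of the short transcript was seen in 1 of 2 libraries.

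At the 3′ edge the window cuts through one region and stops short of a strong peak. The pooled summit at 1258207 lies just inside the gene, in the 3′ UTR, and its counterpart in replicate 1 has its summit at 1258171, just outside, between grh-1 and the convergent gene Y48G8AL.15, whose end is 32 bp from that of grh-1. At the upstream edge the outermost member is the replicate 1 line at 6625 bp, and the next line outside is at 8349 bp, with signals of 9.89 and 9.68. The strong peak outside has its summit at 1256274, 1927 bp past the 3′ end of grh-1 and 1504 bp into Y48G8AL.15, in an intron. Its signal value was 274 in the pooled list, 152 in replicate 1 and 123 in replicate 2, with ranks of 26, 32 and 17. The grh-1 gene is thus flanked on both sides by regions within the 32 strongest of every list, and the distal one exceeded the intronic one by a factor of 1.37 in the pooled list, 1.55 in replicate 1 and 1.05 in replicate 2.

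The BLMP-1 core stood close to the summit at 3 of the 12 pooled regions of grh-1. At the distal peak it lay 12 bp from the summit, at 1273951 to 1273958. At the proximal peak it lay 24 bp away, at 1269186 to 1269193. The third was the first-intron region under the cut, with the core 10 bp from the summit, at 1266603 to 1266610. Over the whole series the core lay within 50 bp of 15.1% of IDR summits, 4.74% of the 843 regions next below the IDR list and 1.85% of the other candidates. Where an IDR summit had the core, the median distance was 15 bp. The peak in Y48G8AL.15 had it too, 8 bp from the summit, on the strand that codes for grh-1.

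Counted from the sequence instead of from the peaks, the window of 17955 bp holds 4 cores, all on the plus strand, opposite to grh-1. Of these 4, 2 lie in the IDR regions, 1 in the first-intron region and 1, at 1269917 to 1269924 between the start and Y48G8AR.8, in no pooled region. In the genome 13.1% of the 13763 cores lie in a pooled region and 1.40% in an IDR region. The 4 cores amount to 0.223 per kb, where the genome has 0.137 per kb. The shortened core AGTGAAA occurs 7 times in the window, and the 3 further occurrences, in the 3′ UTR, intron 7 and the first exon, lie in no pooled region. Within 50 bp of the summit AGTGAAA was found at the same 3 regions as the full core, against 21.6% of IDR summits and 4.04% of other candidates.

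The 2 IDR peaks differ in their GA repeats. At the proximal peak GAGAGA occurs once, 1 bp from the summit. At the distal peak an uninterrupted alternation of the 2 letters, read as CT on the plus strand, runs for 37 bp from 1273966 to 1274002, and a further GAGAGA covers the summit itself. A run that long or longer within 150 bp of the summit was found at 2 of the 843 IDR regions (0.237%, the distal peak included) and at 0.124% of other candidates. The summits of both replicates, at 1273967 and 1273973, fall inside the run, while the pooled summit falls before it, with the core between them. How reads were placed in this repeat is not given in the sources used here, and its part in the signal was not tested. By itself GAGAGA lay within 50 bp of 29.9% of IDR summits, 21.1% of the 843 regions next below and 7.0% of other candidates, and among the other 10 pooled regions of grh-1 it was found at 2, the one at 1258207 and the one at 1261707.

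The core recurred at several peaks of the same gene in few cases. Of the 189 genes with 2 or more IDR summits, 10 (5.29%) had the core at 2 or more of them. The others were kin-20, osr-1, xbp-1, cdh-12, dnj-16, lars-1, tex-2, rfip-1 and F55C12.6, named after their values were seen, and some share peaks with neighbours. Only grh-1 had both the core and GAGAGA at 2 IDR summits. The words and the gene were both taken up with earlier results known, so no test is given.

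Words of other factors were also searched at the grh-1 regions. The Grainyhead word AACCGGTT did not occur in the window. It is rare, with 990 copies in the genome or 0.00987 per kb, and at that rate most windows of this length would hold none. It is at 0.237% of IDR summits and 0.131% of other candidates. GATAA, the core of GATA factor sites, lay at 6 of the 12 summits and at both IDR summits, where 22.3% of all IDR summits and 22.2% of other candidates have it. The Sp1 word GGGCGG occurred at 1, the region 3126 bp upstream, against 5.81% of IDR summits and 1.97% of other candidates. The E-box CAGCTG and the AP-1 word TGACTCA were at none. CAGCTG is at 2.25% of IDR summits and 1.58% of other candidates, and TGACTCA at 0.237% and 0.763%. G+C content within 50 bp of the summit was 37.6% at the distal and 32.7% at the proximal peak. Both lie below the IDR median of 42.6% and above the median of 31.7% over other candidates. G+C content ranged from 19.8% to 54.5% over the 12 regions.

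Beside grh-1, other regulators of the molting cycle had IDR peaks. The distal peak of grh-1 was the strongest among them, but grh-1 was chosen for its peaks. Of 10 listed genes, grh-1 included, 6 had an IDR summit in the body or 8000 bp upstream, where 8.38% of all protein-coding genes did. The list was written with earlier results of these data known and its genes were not matched for window length, so the count and the order are a description. After grh-1 (374, rank 12) came nhr-23, which encodes the RORA-like receptor that drives molting genes, with 152 (rank 75) at 2616 bp upstream. The receptor gene nhr-85 had 133 (rank 99) at 3897 bp upstream. The gene nhr-25, for an SF-1-like receptor of the epidermis, had 3 IDR summits, the highest 130 (rank 103) at 5171 bp upstream. Another of them, 71.4 at 549 bp inside the gene, ranked 182 in replicate 1 and 15512 in replicate 2. The gene lin-42, the homologue of Period, had 2 summits, both inside the gene, up to 53.5. The gene myrf-1, for a membrane-bound transcription factor needed for molting, had 1 at 47.0, close to the lowest IDR signal, with ranks of 1025 and 4089 in the replicates.

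In this list the 4 strongest regions all lay beyond 2000 bp upstream of the start, outside the immediate promoter. The core was found at both summits of grh-1 and at 1 of the 2 of lin-42, and at none of the 6 summits of nhr-23, nhr-25, nhr-85 and myrf-1. No IDR summit was found for bed-3, dre-1, myrf-2 and blmp-1. The highest pooled signals were 26.8 at bed-3, 27.9 at dre-1 and 18.8 at myrf-2. The pooled list used here held no summit in the window of blmp-1, where the median over all genes was 3. The strain also carries tagged blmp-1 as a transgene, and why this window was empty was not tested.

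Of 24 listed epidermal transcription factor genes, grh-1 included, 6 had an IDR summit in the same window, where 8.38% of all protein-coding genes did. The count is a description, since grh-1 was chosen for its peaks and the genes were not matched for window length. Of these 6 genes, 3 are also in the list above, namely grh-1, nhr-23 and nhr-25. The 2 lists were not tested against each other. The others were egl-27 (111, rank 136, 5725 bp upstream), lin-26 (64.1, rank 442, 5571 bp upstream) and rnt-1 (47.9, rank 798, inside the gene). LIN-26 specifies epidermal fate in the embryo and RNT-1 is the Runx factor of the seam cells. Among the genes without an IDR summit, peb-1 came nearest with 38.7 (rank 1196). The GATA factor genes elt-1, which specifies the epidermis, and elt-3 reached 25.1 and 21.6. Of the 11 IDR summits at these 6 genes, 3 had the core, both of grh-1 and 1 of egl-27.

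**Figure D3:**
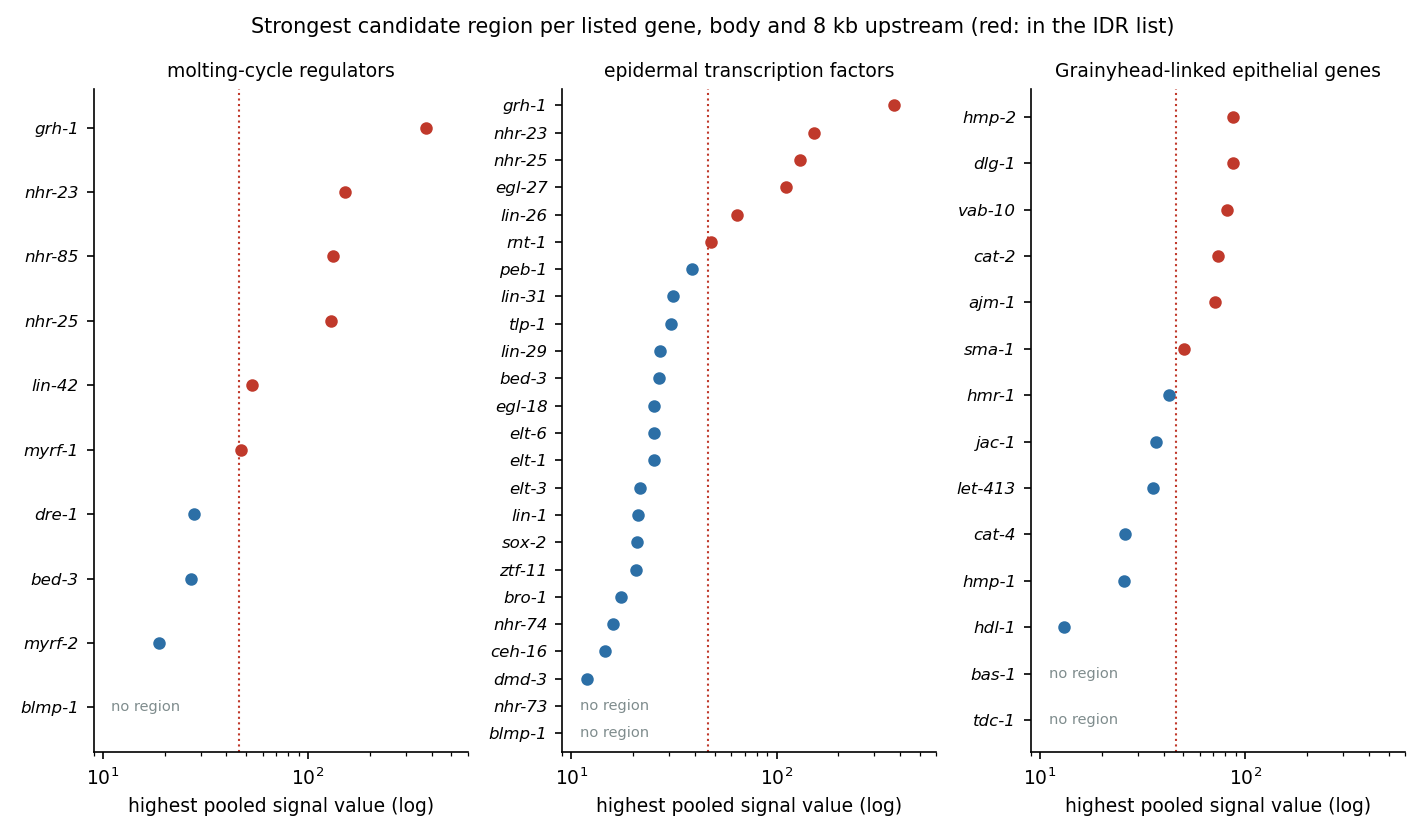
Signal value (log scale) of the strongest pooled region in the body or 8000 bp upstream of each listed gene, red where the gene has an IDR summit there and blue where it does not, with the lowest IDR signal dotted. In the first 2 panels grh-1, which was chosen for its peaks, is at 374 and nhr-23, the next gene, at 152.

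The layout of regions around grh-1 was most like those of lpr-5 and nhr-25. The highest pooled signal was taken in 4 upstream bins of 2000 bp and in the gene body, as log2(signal + 1), and genes were compared by the Euclidean distance over these 5 values. For grh-1 the values were 6.35 in the bin nearest the start, 5.26, 8.55 and no region in the next 3, and 5.48 in the body. The nearest of 19983 genes was lpr-5, a lipocalin-related gene of the apical matrix, at a distance of 1.06, and next was nhr-25 at 1.92, against a median distance of 10.7 over all genes. The chaperonin gene hsp-60 followed at 2.92, mdl-1, a Mad-like bHLH gene, at 3.09, and erm-1, which links the apical membrane to actin, at 3.15. The genes lpr-5, nhr-25 and mdl-1 have their highest value in the same upstream bin as grh-1. For hsp-60 the highest value, 6.88, is in the bin nearest the start, and for erm-1, at 6.34, in the next one. The 5 genes were picked by distance over these same bins, so a shared bin is no separate result. The likeness is one of position and strength in 1 pooled list, and only nhr-25 was among the nearest 5 under all 4 other settings tried. With the list of replicate 2 alone lpr-5 and nhr-25 were again the nearest 2, and with that of replicate 1 alone crt-1 came first, nhr-25 second and lpr-5 was not among the 5.

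**Figure D4:**
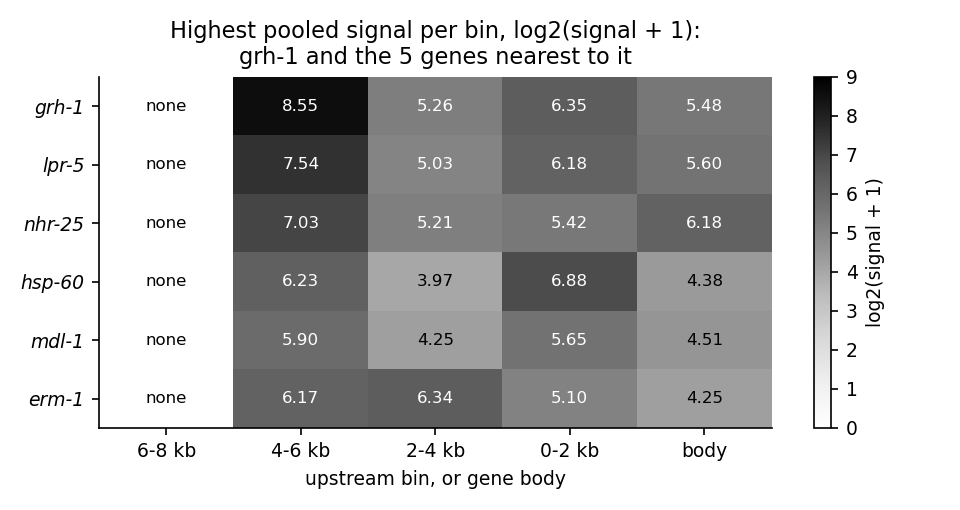
Highest pooled signal as log2(signal + 1) in each upstream bin and in the body, for grh-1 and the 5 protein-coding genes at the shortest distance from it. Dark cells mark strong regions. The genes grh-1, lpr-5, nhr-25 and mdl-1 have their highest value in the 4 to 6 kb bin, at 8.55, 7.54, 7.03 and 5.90.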

How the data were processed

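Peak lists in narrowPeak form on build ce11 were used, as deposited by the authors: the optimal IDR list, the pooled candidates, and the candidates of each replicate. The signal value in them is a score as deposited, with no stated scale. The deposited -log10 q column served in 1 alternative ranking, and the deposited offset of each summit from its region's start gave its position. Aligner, peak caller and IDR threshold: not given in the sources used here. Lists on ce10 were not used, since no ce10 genome was at hand, and the possible control experiment was not analysed here.

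Summits were placed on WBcel235 with the Ensembl release 115 annotation in 1-based positions, with Python 3.11.15, pandas 2.3.3 and numpy 2.4.6. Regions matched when they overlapped by at least 1 bp, and where several did, the one with the nearest summit was taken. A word counted, on either strand, when it lay entirely inside 50 bp of a summit. Counting, matching and word searches were tested on simulated data. The gene, lists and words were chosen with earlier results of these data known, so no test was run. Named genes are grh-1, its neighbours within 20000 bp, listed genes with an IDR summit, the 5 genes nearest in layout and those with the most IDR summits. Others are named for contrast. The depth is unknown, so no interval is given.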

Additional observations from a re-analysis of the deposited data

How the results depend on the processing

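The number of IDR summits at grh-1 fell from 2 to 1 with an upstream reach of 5000 bp or of 2000 bp, since the distal peak then falls outside, and it ranged from 3 to 4 with the strongest regions of 1 replicate alone. The pooled count fell from 12 to 7 with a reach of 2000 bp and was 11 in each replicate. A reach of 20000 bp gave the reported 2 IDR and 12 pooled summits. The distal rank of 12 became 6 on nuclear chromosomes only, and 15 to 19 in single replicates. Ranking by -log10 q also gave 12, but the distal and proximal peaks have the same value there, 3.20. That column therefore cannot order them and adds nothing to the rank by signal. The share of genes with as many IDR summits as grh-1 depends on that count: 6.27% with 5000 bp, 0.671% without the gene body, 2.79% among genes with a window as long or longer, and 0.140% to 0.185% with single replicates. The share with at least 1 summit was 6.27% with 5000 bp, 4.24% with 2000 bp, 4.27% with the IDR regions above the median signal, and 8.01% to 8.38% with single replicates. Molting-cycle genes with a summit numbered 5 to 6 and epidermal factors 7 with single replicates. Of the 5 genes nearest in layout, 1 was kept with bins of 1000 bp, 2 with rank percentiles, and 1 to 2 with single replicates. Agreement of both replicates and the core stayed at 2 of 2 IDR peaks under every overlap rule and search width tried. No paired analysis was possible because both libraries belong to 1 group. Read depth is unknown, so no value could be weighed by it.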

Other observations

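Some genes linked to Grainyhead factors elsewhere also carried BLMP-1 regions. The list holds genes of junctions and the cytoskeleton, and of the enzymes whose fly homologues Grainyhead controls in the cuticle, and was written with earlier results known. Of its 15 genes, 14 were matched to the annotation and 6 had an IDR summit in the body or 8000 bp upstream, where 8.38% of all protein-coding genes did. The genes were not matched for window length, and long windows hold more summits, so the count is a description. The beta-catenin gene hmp-2 had a summit of signal 87.3 at 1382 bp upstream, and dlg-1, which encodes the Discs large scaffold of the junction, had one of 86.8 inside the gene, 749 bp from its start. The spectraplakin gene vab-10 reached 81.3 and the junction gene ajm-1 reached 71.2, both inside long genes, and sma-1, the spectrin gene of embryo elongation, had 50.5 at 188 bp upstream. The other 4 junction genes listed had no IDR summit. The highest pooled signal was 42.5 (rank 1007) at the E-cadherin gene hmr-1, 36.8 at the p120 catenin gene jac-1, 35.5 at let-413, which encodes a Scribble-like scaffold, and 25.8 at the alpha-catenin gene hmp-1. Among the enzymes cat-2, for tyrosine hydroxylase, had a summit of 73.9 at 2462 bp upstream, with ranks of 243 in replicate 1 and 6624 in replicate 2, while hdl-1 and cat-4 had none above 13.1 and 26.0, and bas-1 and tdc-1 had no pooled region. The core was at none of these summits.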
